A study of Zea mays with 4 samples.

Results

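Polysome-bound RNA was compared with total RNA in wild-type maize (Zea mays) endosperm at 15 days after pollination. The comparison rests on 2 of the 4 libraries of the study, 1 of polysome-bound and 1 of total RNA, and covers all 29642 loci listed in both. The other 2 libraries are the same RNA fractions of rea1 mutant endosperm of the same age, used here only as a second, separate comparison that shares no library with wild type. The labels give kernel as the source and endosperm as the tissue. Neither strain background nor the nature of the rea1 allele is given in the labels. Total and polysome-bound RNA were taken from equal amounts of one kind of powdered tissue, and the polysome fraction was what pelleted through a dense sucrose cushion. There was 1 value per locus and library, so no ratio below has a replicate error and no test was made. "Higher" and "lower" describe these libraries.

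A polysome is a messenger RNA carrying several ribosomes, and the RNA that sediments with ribosomes is commonly used as a proxy for the messages under translation. Endosperm is the tissue of the kernel that fills with starch and storage protein. In maize, the prolamin storage proteins (zeins) are made on ribosomes bound to the endoplasmic reticulum, from genes that in part lie in clusters of near-identical copies. The loci were listed by position on the genome build B73 RefGen_v3 without gene names, so no locus is named here as a zein or any other gene, and the tissue label could not be checked against marker genes. Values are FPKM, fragments scaled by transcript length and library size. FPKM is a share of its library: the ratio of polysome-bound to total RNA says how a locus ranks among the RNA on polysomes, not what part of its own RNA was on them. Nor can fewer cells of a type and less RNA per cell be told apart in bulk tissue.

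Most loci had similar values in both fractions. Ratios were examined for 17682 loci, those averaging 1 FPKM or more across the 4 libraries, called tested loci, as differences of log2(FPKM + 1). The added 1 shrinks the ratios of low loci. Of these, 88.5% lay within 2-fold. Polysome-bound RNA exceeded total RNA by 2-fold or more at 797 loci (4.51%), and total RNA exceeded polysome-bound RNA by that much at 1232 loci (6.97%). Beyond 4-fold there were 108 higher and 166 lower loci. The log2 ratio had a median of -0.06, quartiles of -0.43 and 0.29, and a range of -1.15 to 0.94 between percentiles 5 and 95. Across loci, which are not independent replicates, log2(FPKM + 1) in the 2 libraries had a Pearson r of 0.921, and Spearman's rho was 0.899. The sign of the median depended on the scaling: median-of-ratios scaling moved polysome-bound against total RNA by 0.101 (log2), after which the median was 0.02, with 1016 loci higher and 1133 lower.

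**Figure D1:**
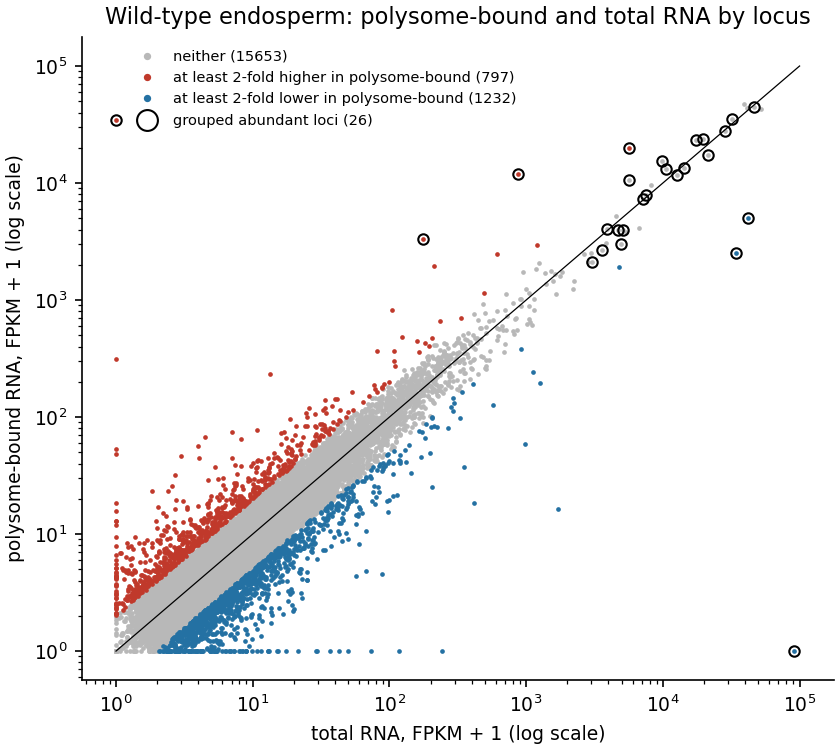
Polysome-bound RNA against total RNA in wild-type endosperm, each axis as FPKM + 1 on a log scale, 1 point per tested locus. Red points are the 797 loci higher by 2-fold or more in polysome-bound RNA and blue points the 1232 lower ones; open circles mark the 26 abundant loci that lie in groups, several of which sit far from the diagonal of equal values.

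The libraries had no stated read depth. Their FPKM summed to 977156 in total and 895922 in polysome-bound RNA, with medians of 1.69 and 1.5 FPKM over all listed loci. Among the 1644 loci under 0.2 FPKM but above 0 in both, the total value was most often 1.23 times the polysome-bound value, with 29.4% of these loci within 0.1 (log2) of that step. Neither the depth nor the denominator of FPKM is given in the sources used here. In all, 23697 loci were above 0 in both wild-type libraries, 2129 in total RNA alone and 1770 in polysome-bound RNA alone. The loci seen in only 1 library were mostly near the lower end of the scale, with medians of 0.145 FPKM in total RNA alone and 0.105 FPKM in polysome-bound RNA alone. Only 17 of the first kind and 9 of the second reached 10 FPKM.

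The most abundant RNAs were largely the same in both fractions. The 50 most abundant loci of each library had 44 in common, and the 100 most abundant had 84 in common. Among the 10 most abundant, however, only 6 were shared. The locus with the largest mean of both libraries lay on chromosome 4, 21334901 to 21335970, and had 52408 FPKM in total and 43299 FPKM in polysome-bound RNA. Chromosome 6, 44541825 to 44542774, had 38973 and 47790 FPKM, the highest value of the polysome library. Chromosome 2, 183991961 to 183993036, had 41136 and 43734 FPKM. These 3 loci, none of which belongs to a group of abundant neighbours, each differed by less than 1.5-fold between the fractions.

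Other very abundant loci differed widely, among them 3 of the 4 that lay on the short stretch of chromosome 7 from 18.8 to 18.9 Mb. The locus at 18865424 to 18866146, 723 bp long, had the highest value of the total RNA library, 91299 FPKM, and was listed at 0 in polysome-bound RNA. Its place in the sum changed accordingly, from 9.34% of all FPKM in total RNA to none. No fold is given for it, since an exact 0 in a table without counts can be a failed estimate. The locus at 18755936 to 18756661, 726 bp long, had 41754 FPKM in total and 5065 FPKM in polysome-bound RNA, 8.24-fold lower. At 18779575 to 18780300, also 726 bp long, the values were 34546 and 2518 FPKM, 13.7-fold lower. The fourth abundant locus of the stretch, 18877460 to 18878182 and 723 bp long, had 28408 and 28102 FPKM and so hardly differed. In rea1 that last locus had 4501 FPKM in total and 19471 FPKM in polysome-bound RNA, a log2 ratio of 2.11.

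The 4 loci of chromosome 7 together summed to 196008 FPKM in total and 35685 FPKM in polysome-bound RNA, a ratio of 0.182. Without the locus listed at 0 the ratio was 0.341. Less abundant loci within the same span differed by unequal amounts: 18867732 to 18868453 had 983 and 58.0 FPKM, while 18789875 to 18790599 had 227 and 185 FPKM. Just outside the span, at 18954749 to 18955697, a locus of 949 bp had 1712 FPKM in total and 15.5 FPKM in polysome-bound RNA. It was 111-fold lower, the lowest ratio among loci above 0 in both wild-type libraries with a wild-type mean of 100 to 1000 FPKM. In rea1 the same locus had 277 and 6.90 FPKM. The locus at 18865424 was again listed at 0 in polysome-bound RNA, against 14590 FPKM in total RNA. Not all lower loci recurred in rea1. The locus at 18779575 had 8135 and 1639 FPKM there, a log2 ratio of -2.31. That at 18755936 had 6812 and 3930 FPKM, a log2 ratio of -0.79, short of 2-fold. The loci at 18867732 and 18789875 were higher in polysome-bound RNA of rea1, with 57.5 and 95.3 FPKM and with 94.2 and 190 FPKM. The sums of the 4 abundant loci had a ratio of 0.736 in rea1. How reads were divided among loci of like sequence is not given in the sources used here, and the part of shared reads in these values was not tested.

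A second group on chromosome 7 showed the reverse pattern. The locus at 120233940 to 120236057 had 34692 FPKM in polysome-bound RNA, 3.87% of that library, and in total RNA it was listed at 0. In rea1 it had 31354 FPKM in total and 28979 FPKM in polysome-bound RNA, so it was at 0 in 1 of the 4 libraries. Its neighbour at 120206897 to 120208211 had 9911 FPKM in total and 15484 FPKM in polysome-bound RNA, 1.56-fold higher. The sum of both was 5.06-fold higher in polysome-bound RNA, but that value rests on the locus listed at 0.

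The largest group, 13 loci of chromosome 4 between 5.08 and 5.56 Mb, split into a variable and an even part. The 5 loci from 5.52 to 5.56 Mb had polysome-to-total ratios between 0.939 and 1.34, with sums of 89635 FPKM in total and 93442 FPKM in polysome-bound RNA. The 8 loci from 5.08 to 5.18 Mb had ratios between 0.611 and 19.1, and 4 of them were above 1 and 4 below. Their sum was 1.55-fold higher in polysome-bound RNA, 72300 against 46675 FPKM. This division of the group was made after its values were seen. The limit of 1000 FPKM counts the polysome-bound values, which can carry a locus over it. The loci at 5079765 and 5083079 had 175 and 866 FPKM in wild-type total RNA and passed it through polysome-bound values. The locus at 5094105, lower in polysome-bound RNA, averaged 417 FPKM and stayed out. The sum and the spread of ratios therefore depend in part on that limit.

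The 3 highest ratios of that group belonged to loci of similar length near its left end. The locus at 5079765 to 5080833 had 175 FPKM in total and 3332 FPKM in polysome-bound RNA, 19.1-fold higher. At 5083079 to 5084155 the values were 866 and 11852 FPKM, 13.7-fold higher. The locus at 5122439 to 5123472 had 5671 and 20084 FPKM, 3.54-fold higher. All 3 were also the highest of the group in rea1, with log2 ratios of 5.87, 5.43 and 2.85. Between the second and the third, the less abundant locus at 5094105 to 5094990 went the other way, with 1268 FPKM in total and 195 FPKM in polysome-bound RNA. Over the 13 loci the wild-type and rea1 ratios had a Spearman rho of 0.907, given as a description, since neighbouring copies may share reads. Over the 44 abundant loci outside the groups it was 0.324, and over all tested loci 0.495, so 0.907 is not typical of abundant loci.

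**Figure D2:**
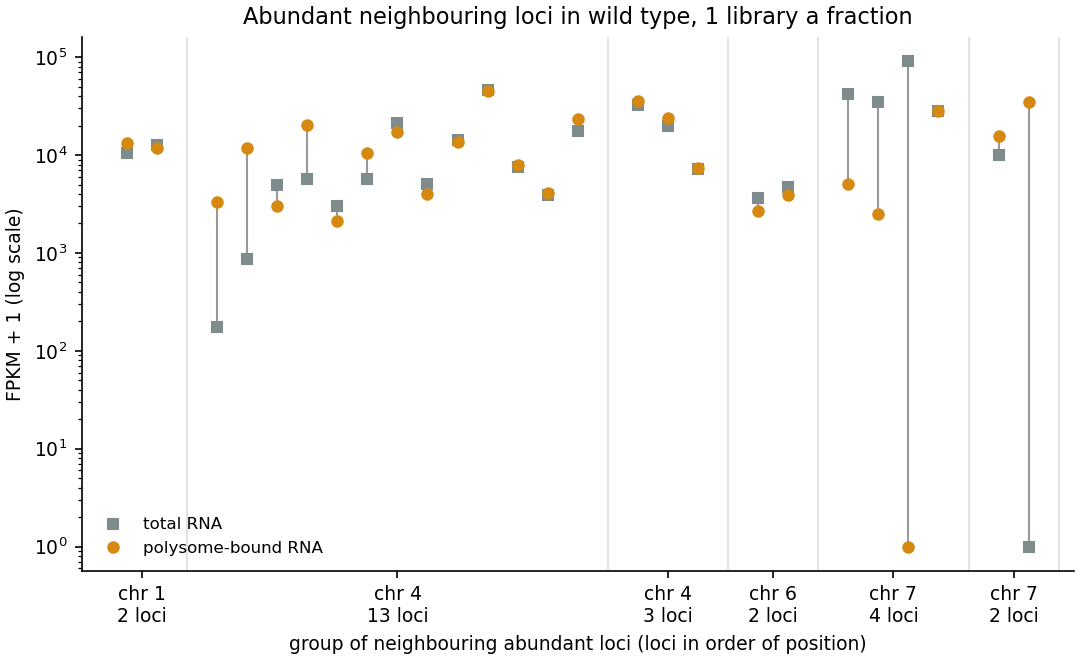
FPKM + 1 (log scale) of the 26 abundant loci that lie within 500 kb of another, in wild-type total RNA (grey squares) and polysome-bound RNA (orange circles), joined by a line per locus and ordered by position within each of the 6 groups. The points are within 2-fold of each other in most loci; the exceptions are 3 loci of the first chromosome 7 group, 1 of the second, and 3 in the left part of the 13-locus chromosome 4 group. A value of 1 on the axis is a locus listed at 0.

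The remaining 3 groups were close to even in wild type. The 3 loci of chromosome 4 between 29.95 and 30.09 Mb had log2 ratios from 0.04 to 0.29, and their sums were 58876 FPKM in total and 66541 FPKM in polysome-bound RNA. The most abundant of them, 29951761 to 29952727, had 32120 and 35275 FPKM. The 2 loci of chromosome 1 had sums of 23192 and 24965 FPKM, and the 2 loci of chromosome 6 near 39.09 Mb had 8296 and 6618 FPKM. None of these 7 loci was 2-fold apart in wild type. In rea1 these groups were not even: the ratios of their sums were 3.53, 2.43 and 2.23 in the same order.

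If each library is set to the same sum, 23.4% of the FPKM stood at other loci in polysome-bound than in total RNA. The 70 loci averaging 1000 FPKM or more over the 4 libraries accounted for 17.0 of these 23.4 percentage points, and the 26 grouped ones for 14.4. Abundant loci also held most of the FPKM. The 50 most abundant of each library held 64.4% of it in total and 60.7% in polysome-bound RNA. The points are therefore not read as a concentration of differences in abundant loci. Without the 2 chromosome 7 loci listed at 0 in a wild-type library, 17.3% of the FPKM stood at other loci, of which 10.6 points came from the abundant loci left and 7.91 from the grouped ones. The 44 abundant loci outside the groups had a median log2 ratio of 0.07 and nearly equal sums, 210555 FPKM in total and 212722 FPKM in polysome-bound RNA. Of the 44, 5 (11.4%) were 2-fold or more apart, close to the 11.5% of all tested loci, and these 5 are named because of that, after their values were seen. Chromosome 8, 108689439 to 108690609, had 212 FPKM in total and 1952 FPKM in polysome-bound RNA, and in rea1 90.8 and 2189 FPKM. Chromosome 2, 21389641 to 21391610, had 608 and 2460 FPKM. Both of these loci passed the limit of 1000 FPKM through their polysome-bound values, which that limit counts. Higher in polysome-bound RNA were also chromosome 6, 121573176 to 121574010, with 1192 and 2975 FPKM, and chromosome 5, 167791848 to 167793057, with 488 and 1150 FPKM. The 1 lower locus lay on chromosome 8, 133996633 to 133997534, with 4806 FPKM in total and 1916 FPKM in polysome-bound RNA.

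By abundance, the median log2 ratio lay between -0.11 and 0.19. Loci were classed by their mean in the rea1 libraries, which the wild-type ratio does not use. The 9317 loci of 1 to 10 FPKM had a median log2 ratio of -0.11, with 4.51% at least 2-fold higher and 8.28% lower. The 7055 loci of 10 to 100 FPKM had a median of -0.03, with 4.18% higher and 5.44% lower. For the 973 loci of 100 to 1000 FPKM the median was 0.19, with 4.52% higher and 3.70% lower. The 88 loci of 1000 FPKM or more had a median of 0.07, with 6.82% higher and 4.55% lower. No order of these shares by abundance is read, because the pseudocount turns it. With a pseudocount of 5 the lower shares of the first 3 classes were 0.784%, 2.96% and 3.29% and the higher shares 0.676%, 2.17% and 3.91%. With 0.1 the lower shares were 16.5%, 6.52% and 3.70% and the higher shares 9.12%, 4.81% and 4.52%. In rea1, with a pseudocount of 1, the share of lower loci was 22.5%, 17.2% and 26.2% in the same 3 classes, against 20.3% of all tested loci there. The 249 loci under 1 FPKM in rea1 entered only through their wild-type values, and nothing is read from them.

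**Figure D3:**
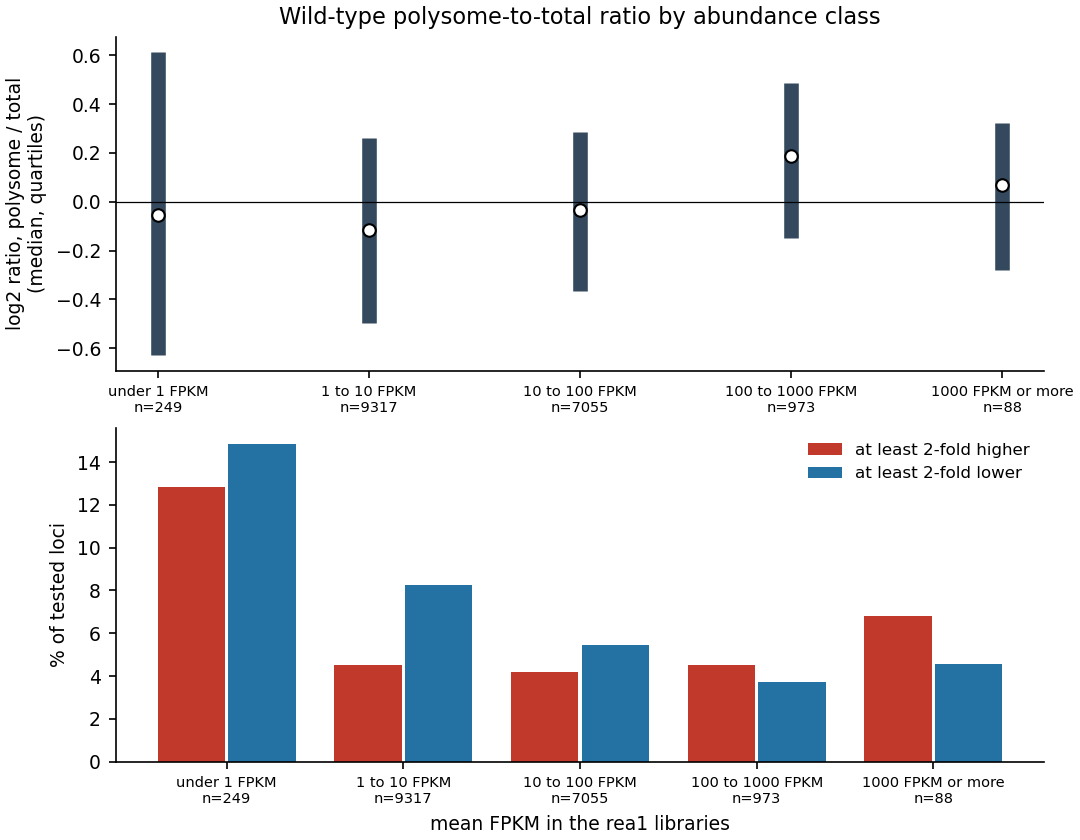
Wild-type log2 ratio of polysome-bound to total RNA by abundance class (mean FPKM of the rea1 libraries), with the median as a point and the quartiles as a bar above, and the percentage of tested loci at least 2-fold higher (red) or lower (blue) below. The median is highest, 0.19, in the class of 100 to 1000 FPKM, and the share of lower loci is 3.70% there.

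Locus length was related to the spread of the ratio more than to its centre. The length is that of the locus on the genome, introns included. The quartiles of the log2 ratio lay 1.58 apart for the 388 loci under 600 bp, 1.12 apart for the 1366 loci of 600 to under 1200 bp, 0.86 apart for 1200 to under 2400 bp and 0.60 apart for the 619 loci of 20000 bp or more. The share of lower loci was 27.8%, 15.2%, 8.60%, 5.41%, 4.94% and 4.04% from the shortest to the longest class, around the 6.97% of all tested loci. The share of higher loci was 11.9%, 10.5%, 7.74%, 3.80%, 2.13% and 2.91% in the same order, around 4.51%. The medians ran from -0.23 in the shortest class through 0.02 at 1200 to under 2400 bp to -0.13 in the longest.

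Within 2 of 3 classes of abundance, short loci again had the larger share of lower loci. Within the loci of 10 to 100 FPKM in rea1, 28.2% of the 117 under 600 bp were lower, against 14.5% of the 421 of 600 to under 1200 bp and 3.60% of the 2918 of 4800 to under 20000 bp. Within those of 1 to 10 FPKM, the same shares were 28.6%, 16.3% and 6.42%. The order was less regular at 100 to 1000 FPKM, with 10.7% of 28 loci under 600 bp lower, then 11.5%, 4.09%, 2.99% and 0.877% in the next 4 classes, and 5.56%, or 1 locus, of the 18 of 20000 bp or more. Loci listed at 0 in 1 wild-type library were more frequent among the shortest, and without them 21.4% of the 299 loci under 600 bp were lower and 9.36% higher. A short transcript yields fewer fragments at the same FPKM. The part of counting error in the wider spread was not tested, since read counts are not given.

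**Figure D4:**
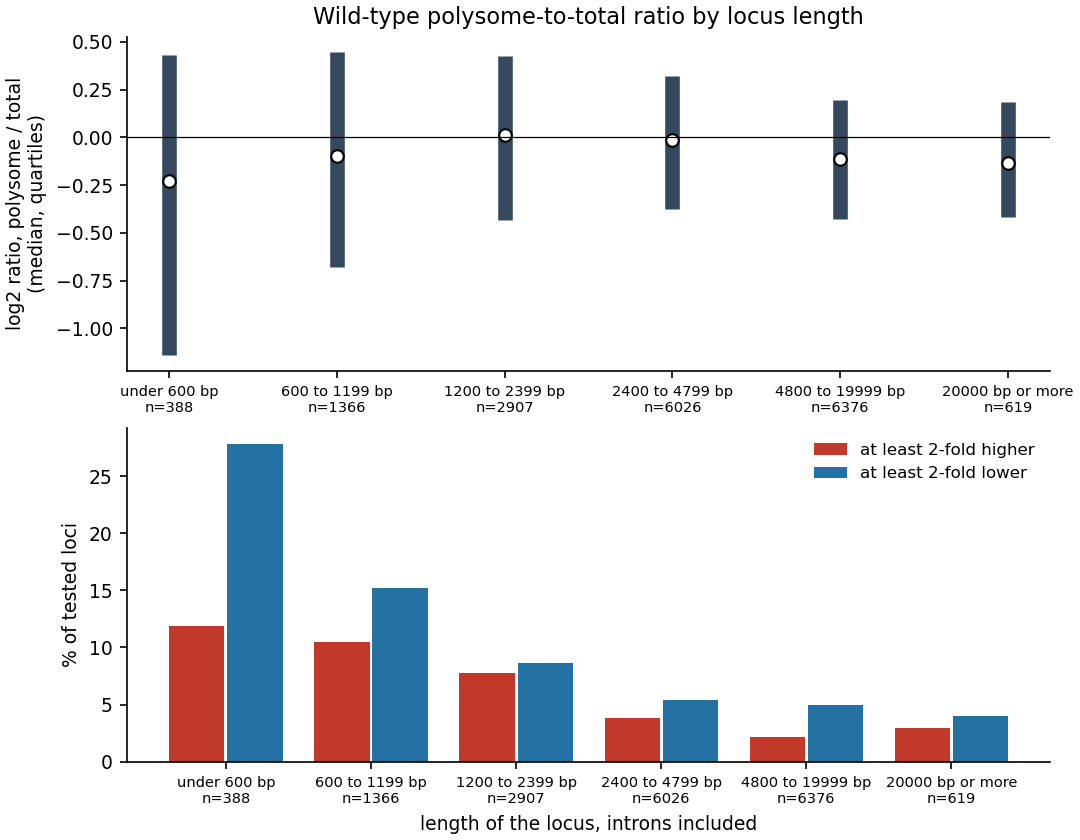
Wild-type log2 ratio of polysome-bound to total RNA by locus length, with the median as a point and the quartiles as a bar above, and the percentage of tested loci at least 2-fold higher (red) or lower (blue) below. The quartiles lie 1.58 apart under 600 bp and 0.60 apart at 20000 bp or more, and the share of lower loci is 27.8% in the shortest and 4.04% in the longest class.

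Examples from both ends of the length range show the extreme ratios of these classes, not their typical loci. Of the 131 loci under 600 bp that averaged 10 FPKM or more in wild type, 12 (9.16%) were higher and 32 (24.4%) lower. The shares of all tested loci were 4.51% and 6.97%. Here and below, highest and lowest ratios of a class are those among loci above 0 in both wild-type libraries. Among short loci of at least 10 FPKM, chromosome 5, 169860841 to 169861380, had 104 FPKM in total and 819 FPKM in polysome-bound RNA, 7.89-fold higher, and in rea1 191 and 1565 FPKM. Chromosome 2, 163636206 to 163636784, had 1.41 and 22.4 FPKM. The lowest short loci were chromosome 7, 89122466 to 89122914, with 203 and 24.2 FPKM, and chromosome 8, 133650079 to 133650414, with 21.5 and 2.12 FPKM. Both of these were lower in rea1 too, with log2 ratios of -3.50 and -2.48.

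Counts of long loci past 2-fold were small. Of the 206 loci of 20000 bp or more that averaged 10 FPKM or more in wild type, 6 were higher and 8 lower, 2.91% and 3.88%. Among loci of any length, the shares were 4.67% and 4.95% at a wild-type mean of 10 to 100 FPKM. At 100 to 1000 FPKM they were 4.04% and 4.68%. With so few loci, the counts are not read as particular to long loci. The highest ratio was at chromosome 7, 108309686 to 108416833, a locus of 107148 bp with 7.24 FPKM in total and 64.3 FPKM in polysome-bound RNA. The next, chromosome 2, 210699275 to 210724745, had 23.8 and 82.6 FPKM and shares its coordinates with another entry. The lowest was chromosome 1, 162047479 to 162097052, with 415 FPKM in total and 17.6 FPKM in polysome-bound RNA, 23.6-fold lower. In rea1 that locus had 9.63 and 5.34 FPKM. Chromosome 5, 159722272 to 159769511, had 1118 and 244 FPKM in wild type, 4.59-fold lower, and 364 and 96.2 FPKM in rea1.

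Examples by abundance were chosen from classes of the wild-type mean, not the rea1 mean. Among loci of 10 to 100 FPKM by that mean the extremes were as wide. Chromosome 7, 39888296 to 39889211, had 1.98 FPKM in total and 45.1 FPKM in polysome-bound RNA, 22.7-fold higher, and nearly the same values in rea1, 1.99 and 46.6 FPKM. Chromosome 3, 23898039 to 23899690, had 3.50 and 67.0 FPKM. The lowest ratio was at chromosome 9, 146714310 to 146717502, with 87.5 and 3.55 FPKM, and in rea1 33.2 and 1.05 FPKM. Chromosome 5, 82585771 to 82592214, followed with 66.9 and 3.82 FPKM. Listed at 0 in polysome-bound RNA of both genotypes was chromosome 2, 225662083 to 225662933, whose total RNA held 243 FPKM in wild type and 178 in rea1. An entry at chromosome 1, 246090026 to 246092492, had 315 FPKM in wild-type polysome-bound RNA and was listed at 0 in the other 3 libraries; it shares its coordinates with another entry.

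Loci past 2-fold tended to have a neighbour past 2-fold the same way somewhat more often than loci in general. The next tested locus on the chromosome was higher for 7.67% of higher loci, against 4.46% of all next loci, and lower for 10.9% of lower loci, against 6.99%. There were 14 runs of at least 3 lower loci in a row, holding 45 loci, and 7 such runs of higher loci, holding 21. Of these, 30 of the 45 (66.7%) and 8 of the 21 (38.1%) were past 2-fold the same way in rea1, close to the 70.9% and 31.4% of all loci lower and higher in wild type. Over all tested loci, 20.3% were lower and 2.91% higher in rea1. The longest run had 5 lower loci, on chromosome 6 between 14783274 and 14974031, of which the first had 23.0 FPKM in total and 9.79 FPKM in polysome-bound RNA. A run on chromosome 5 held the 47240 bp locus described above and its neighbour at 159796628 to 159797566, which had 567 and 125 FPKM. Elsewhere on chromosome 5, a run of higher loci held the 540 bp locus described above and, next to it, 169868724 to 169875813. That neighbour had 12.5 FPKM in total and 230 FPKM in polysome-bound RNA. Its ratio was the highest among loci above 0 in both wild-type libraries with a wild-type mean of 100 to 1000 FPKM. Runs were counted after the data were seen, and overlapping or like loci can share reads.

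By chromosome, the median log2 ratio lay between -0.09 and -0.03 for all 10 chromosomes, with 3.42% to 6.15% of loci higher and 5.87% to 8.30% lower. The 69 tested loci on unplaced scaffolds had a median of 0.18, with 8 (11.6%) higher and 3 (4.35%) lower. Over all tested loci the shares were 4.51% and 6.97%. Among the 67 scaffold loci above 0 in both wild-type libraries, 8.96% were higher. With so few loci, nothing is read from these shares. Entries that share their coordinates with another, 1009 of those tested, were higher in 4.36% and lower in 6.94% of cases. In 60 of 340 sets of such entries the ratios within the set were at least 2-fold apart, and in 0 sets was 1 entry 2-fold higher and another 2-fold lower.

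Organelle transcripts, which are translated on the organelles' own ribosomes, were rare in both libraries. Of the 51 mitochondrial loci, 31 were above 0 in total and 18 in polysome-bound RNA, with sums of 19.0 and 5.01 FPKM. The total value was the larger in 31 of these loci and the polysome-bound value in 4, and the other 16 were at 0 in both. Most of these values were under 1 FPKM, many of them set against a 0, so the tally lies near the limit of detection. A locus of 378 bp, at 262384 to 262761 of the mitochondrial sequence, made up much of both sums, with 7.38 and 1.82 FPKM. It was the only organelle locus tested, and its ratio was 4.05-fold lower without the pseudocount. Without it the ratio of the sums was 0.274, against 0.264 with it. In rea1 the sums of the mitochondrial loci were 30.8 FPKM in total and 12.4 FPKM in polysome-bound RNA, a ratio of 0.401. Of the 22 plastid loci, 3 were above 0 in total and 2 in polysome-bound RNA, none of them above 0.0927 FPKM, so no ratio is read from them.

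The wild-type differences were set beside those of rea1, whose libraries are separate. Of the 797 loci higher in wild type, 31.4% were higher by 2-fold or more in rea1 too, where 2.91% of all tested loci were. Of the 1232 lower loci, 70.9% were lower in rea1 too, where 20.3% of all tested loci were. As shares of the rea1 lists, 48.5% of the loci higher in rea1 and 24.4% of those lower in rea1 were also so in wild type. The rea1 ratios as a whole were shifted, with a median of -0.47. Relative to that median, 83.2% of the loci higher in wild type were above it and 89.5% of the lower ones below it. With median-of-ratios scaling, 40.4% of the higher and 50.6% of the lower loci were past 2-fold in rea1, where 7.19% and 7.73% of all tested loci were.

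Larger differences recurred more often. Of the loci 2-fold to 4-fold higher in wild type, 25.8% were at least 2-fold higher in rea1, and of the 108 at least 4-fold higher, 66.7% were. For lower loci the shares were 69.0% and 83.1%. Over all tested loci the ratios of the genotypes had a Spearman rho of 0.495, and over the 7336 loci averaging 10 FPKM or more it was 0.415. Loci within a library share its preparation and scaling, so these values are a description. Whether the paired fractions came from a single tissue sample is not stated in the labels.

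**Figure D5:**
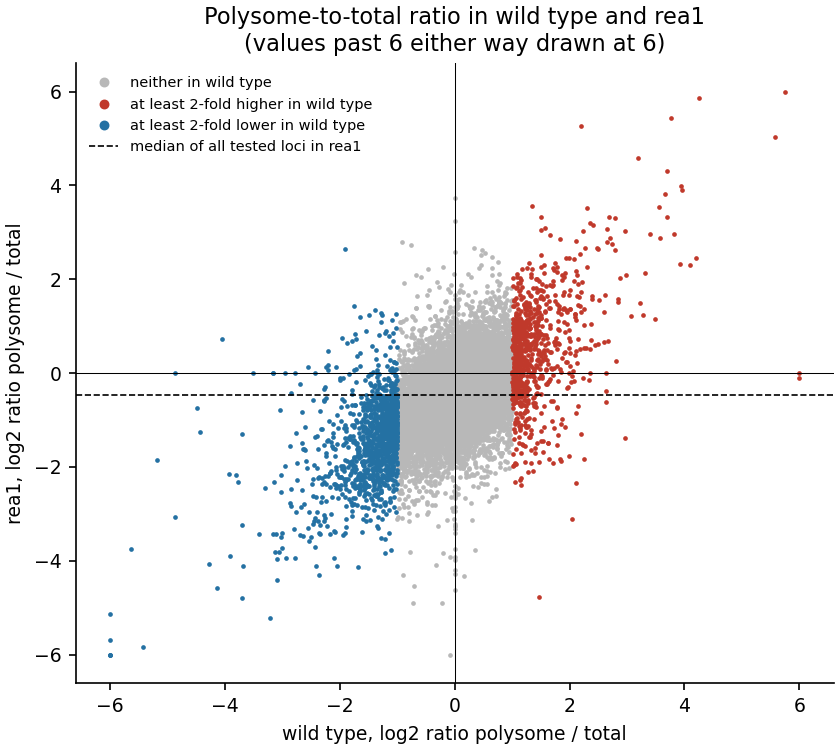
Log2 ratio of polysome-bound to total RNA in rea1 (vertical) against wild type (horizontal), 1 point per tested locus, on the log2(FPKM + 1) scale. Loci past 2-fold in wild type, higher (red) or lower (blue), lie mostly above or below the dashed line, the rea1 median of -0.47: 83.2% of the red points are above it and 89.5% of the blue points below it.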

How the data were processed

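Each deposited file gave FPKM per locus for 1 library, per the file headers. The genome build B73 RefGen_v3 and the aligner Bowtie 0.12.2 are named, without their settings, per the submitters' processing notes. How FPKM was computed, with which annotation and depth, and whether replicates were pooled is not given in the sources used here, although triplicates are mentioned in the series' design text. Rows were in the same order in all files. Starts were read as counted from 0 and are printed counted from 1. Gene names were to hand only for a later assembly (NAM), so no names were joined and the planned gene lists were not used.

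Ratios were taken on log2(FPKM + 1) for loci averaging 1 FPKM or more across the 4 libraries; folds printed beside pairs of values are plain ratios of FPKM. Groups are loci averaging 1000 FPKM or more that lie within 500 kb of another. With 1 library a side no p-value was computed. Named loci were the 10 most abundant in wild type and the 2 highest and 2 lowest ratios in classes of abundance, length and genome, above 0 in both wild-type libraries, plus the 2 most abundant listed at 0 in either; others are said to be chosen after their values were seen, or lie in the spans of named groups and runs. The loci, classes, lists and rules were chosen with earlier results of these data known. Alternatives were other pseudocounts, filters and scalings, and leaving out loci at 0 or with shared coordinates. The steps were tested on simulated data. Python 3.11.15 with numpy 2.4.6, pandas 2.3.3 and matplotlib 3.10.9 was used.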

Additional observations from a re-analysis of the deposited data

Results flagged for a closer look

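The polysome-to-total ratio went opposite ways in the genotypes at 80 of the tested loci, and this difference was not tested for want of replicates. Taking a 2-fold limit in each genotype, polysome-bound RNA was higher in wild type but lower in rea1 at 70 loci, and the other way round at 10 loci. Such opposite calls were fewer than among loci at large: 8.78% of the loci higher in wild type were lower in rea1, against 20.3% of all tested loci, and 0.812% of the lower ones were higher in rea1, against 2.91%. With median-of-ratios scaling the counts were 38 and 21. These were 3.74% of the loci higher in wild type, against 7.73% of all tested loci lower in rea1, and 1.85% of the lower ones, against 7.19% higher. Of the 70 loci of the first kind as deposited, 61 were above 0 in all 4 libraries. The most abundant of these was chromosome 1, 208340474 to 208341797, where wild type had 51.8 FPKM in total and 161 FPKM in polysome-bound RNA, and rea1 had 447 and 158 FPKM. Chromosome 7, 119991341 to 119992231, had 48.9 and 110 FPKM in wild type and 537 and 113 FPKM in rea1. In these 2 loci, named after their values were seen, the polysome-bound values of the genotypes were close and the total values were far apart.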

How the results depend on the processing

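No paired analysis was possible because the comparison has 1 library a side and no replicate numbers. The counts of loci past 2-fold, 797 higher and 1232 lower, followed the pseudocount: 1298 and 2095 with 0.1, and 265 and 330 with 5. They were 324 and 365 among loci averaging 10 FPKM or more, by construction of fewer loci. Under the other filters and scalings they stayed within 1.5-fold. The median log2 ratio lay between -0.08 and 0.03 under all settings. With a pseudocount of 0.1, the shares higher and lower were 12.3% and 14.3% for loci of 1200 to under 2400 bp, 6.49% and 9.96% for 2400 to under 4800 bp, 4.20% and 9.25% for 4800 to under 20000 bp and 4.68% and 7.43% for 20000 bp or more. By abundance they were 23.7% and 24.5% under 1 FPKM and 9.12% and 16.5% at 1 to 10 FPKM. With a pseudocount of 5, they were 4.64% and 13.7% under 600 bp, 5.20% and 4.90% at 600 to under 1200 bp, 2.75% and 2.34% at 1200 to under 2400 bp, 0.962% and 1.28% at 2400 to under 4800 bp, 0.565% and 0.941% at 4800 to under 20000 bp and 0.323% and 0.808% at 20000 bp or more. By abundance they were then 2.01% and 4.82% under 1 FPKM, 0.676% and 0.784% at 1 to 10 FPKM and 2.17% and 2.96% at 10 to 100 FPKM, so that the order by abundance turned. With no filter on low values, the shares were 5.96% and 15.5% under 600 bp, 4.72% and 6.95% at 600 to under 1200 bp, 3.74% and 4.24% at 1200 to under 2400 bp, and 0.939% and 1.29% under 1 FPKM. Among loci averaging 10 FPKM or more, 2.87% of loci of 4800 to under 20000 bp were lower, and the 75 loci left at 1 to 10 FPKM in rea1 gave 16.0% higher and 22.7% lower. Those 75 loci passed that filter only through their wild-type values, which the ratio uses, so nothing is read from their shares. Loci under 600 bp were more often lower than those of 20000 bp or more under every setting run. Of the loci lower in wild type, 47.1% were lower in rea1 when the 50 most abundant loci were left out of the scaling sums. That scaling moved the rea1 ratios by 0.517 (log2), and the share of all tested loci lower in rea1 under it was not computed. The 47.1% is therefore not read as weaker recurrence than the 70.9% as deposited. Median-of-ratios scaling moved the rea1 ratios by 0.575, and 7.73% of all tested loci were then lower in rea1. In alternatives chosen after seeing the data, the share of FPKM placed at other loci from abundant loci was 10.6% and from grouped ones 7.91% without the 2 loci listed at 0, and sums without loci listed at 0 gave ratios of 0.341 for the first and 1.56 for the second chromosome 7 group, and the plastid ratio without its most abundant locus was 1.38, against 0.527 with it. Under the scalings the other group and mitochondrial ratios stayed within 1.5-fold. Of 155 values of single loci under the pseudocounts and scalings, 16 moved by over 1.5-fold, all with another pseudocount. None of these settings could turn the direction of a locus past 2-fold, so nothing is read from the lack of reversals. A pseudocount keeps the sign of a ratio, and the scalings moved the wild-type ratios by at most 0.112 (log2). Read depth is not given, so the counting error of low loci is unknown.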
